A study of Homo sapiens with 6 samples.

Results

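The tripartite motif (TRIM) genes encode a large family of mostly RING-type ubiquitin ligases, and their transcripts were followed here in human DIvA cells with and without p53. Members were all rows of the deposited count table whose symbol is TRIM followed by a number and at most 1 letter, which gave 72 of 55882 rows. DIvA cells derive from the osteosarcoma line U2OS and carry a fusion of the restriction enzyme AsiSI with the estrogen receptor's ligand-binding part, so that 4-hydroxytamoxifen (4-OHT) brings the fusion into the nucleus, where it cuts DNA. There were 3 libraries labelled p53 WT and 3 labelled p53 KO, and both groups received 300 nM 4-OHT for 5 h. No untreated cells were analysed here. The labels give neither the number of knockout clones nor whether replicates were separate cultures, so p-values measure only the spread between these libraries, which may be technical, and loss of p53 cannot be told apart from other differences between the lines.

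A TRIM protein carries a RING domain, which binds the enzyme that donates ubiquitin, followed by B-box zinc fingers and a coiled coil through which the proteins pair. The C-terminal domain differs between members and chooses the target. It is a PRY-SPRY domain in most antiviral members, NHL repeats in some others, and a PHD finger and bromodomain in the chromatin-bound TIF1 members. Some members that bind microtubules carry a COS box. Many members are induced by interferon and act on viral capsids or on the sensors of viral RNA. Others act on p53, stabilising it or marking it for degradation, and some are themselves p53 target genes. MDM2, the main ubiquitin ligase for p53, is not a TRIM protein.

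Total counts were 20393909 to 79767519 per library. Each library had counts for 51 to 56 of the 72 members. The p53 target CDKN1A, whose product p21 stops the cell cycle, was at 542 ± 27.0 CPM (counts scaled to a common library size and composition; SD, n = 3) in p53 WT and 45.8 ± 3.68 CPM (SD, n = 3) in p53 KO. Of 6 mesenchymal and bone lineage markers, VIM, SPARC and COL1A1 had means of 688 CPM or more in both groups, while COL1A2 was at 0.315 and 0.494 CPM; COL1A1 rose, SPARC, VIM, RUNX2 and ALPL fell, and the sum was 5019 to 5654 CPM in p53 WT and 3298 to 3739 CPM in p53 KO. Of 8 leukocyte markers 3 (ITGB2, CORO1A and CD74) rose, and the sum over all 8 was 7.73 to 8.33 CPM in p53 WT and 17.9 to 21.7 CPM in p53 KO, with LYZ at 0 counts in all 6 libraries. PTPRC, the only other one tested, did not pass and was at 1.27 to 2.21 CPM in p53 WT and 1.08 to 1.1 CPM in p53 KO (log2 fold change -0.66, SE 0.40), so it lay on the other side. Of 8 skeletal muscle markers 4 were tested: DES and MYH2 rose, while ACTA1 (-0.80, SE 1.01) and TTN (0.12, SE 0.30) did not pass. Of the untested ones MYL1 was at 0.387 CPM on average in p53 WT and 0.0253 CPM in p53 KO, with no overlap, CKM had 6 counts in all, none of them in p53 KO, and MYOG had 0. The muscle sum was 5.67 to 7.52 CPM in p53 WT and 12.8 to 15.8 CPM in p53 KO. The part of such markers in the results below was not tested. In bulk RNA, fewer cells of a type and less RNA per cell cannot be told apart.

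Of the 72 members, 48 had enough counts to be tested. Of the other 24, 10 had no count in any library, which allows up to 3 counts (0.0376 to 0.147 CPM, depending on the library's depth, and for counting error only), and 14 had totals of at most 61 counts over all 6 libraries. The untested members include copies of the TRIM43, TRIM49, TRIM51 and TRIM64 type, the muscle ligase TRIM63 and the gut-enriched TRIM31, TRIM40 and TRIM15. Between p53 KO and p53 WT, 20 of the 48 tested members passed an adjusted p under 0.05, where 26.5% of all genes tested did. By direction, 9 rose (background 12.1%) and 11 fell (background 14.4%). When only genes averaging 5 CPM or more were counted, a limit chosen after seeing the data, 18 of 40 TRIM genes were called against a background of 37.5%. The median log2 fold change (p53 KO over p53 WT) was -0.07 over the tested TRIM genes and 0.01 over all genes tested. Of the 48 tested members, 4 were called and differed by at least 2-fold, where 9.25% of all genes tested did. TRIM22, TRIM54 and TRIM9 were lower and TRIM29 was higher in p53 KO.

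**Figure D1:**
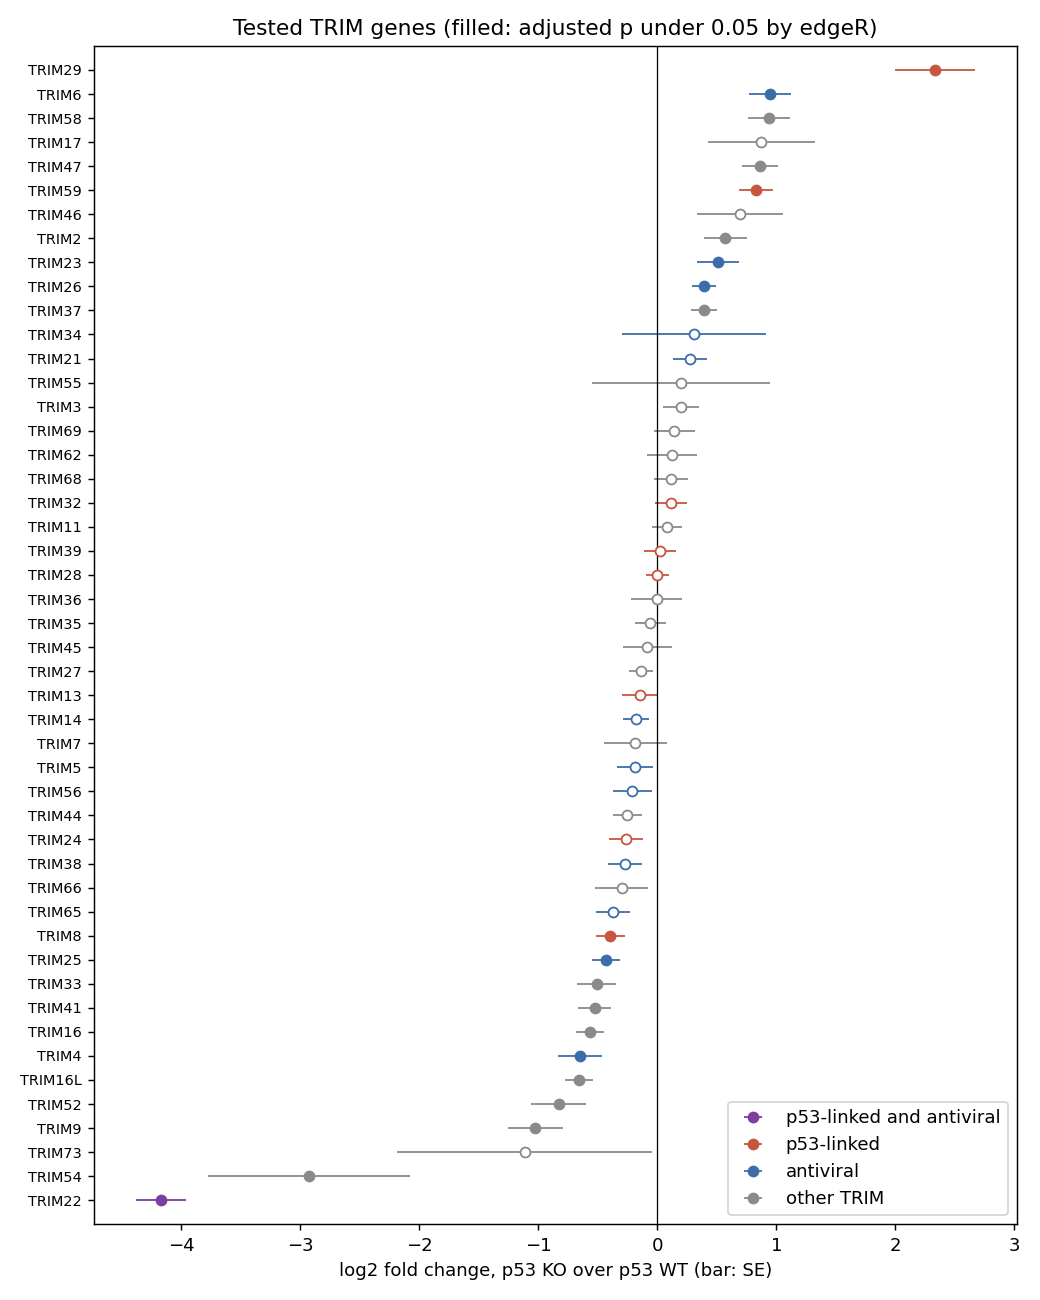
Log2 fold change of each of the 48 tested TRIM genes, p53 KO over p53 WT, with its standard error as a bar; filled points passed an adjusted p under 0.05 and colours give the p53-linked and antiviral lists. TRIM22, on both lists, lies at -4.17, and members of either list lie on both sides of 0.

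The p53-linked and antiviral members were set against the rest of the family. Of 21 tested members on either list, 5 rose and 4 fell, and of 27 tested members on neither list, 4 rose and 7 fell. Over all genes tested, 12.1% rose and 14.4% fell. The called shares were 42.9% and 40.7%, and the medians were -0.14 and -0.06. The background was 26.5% over all genes tested and 37.5% over genes averaging 5 CPM or more. On the p53-linked list alone, 2 of 9 tested members rose and 2 fell, a called share of 44.4%. Without TRIM22, 8 of 20 members on either list were called. The shares on either list and on neither were close to each other, and the difference between the lists and the rest was described and not tested. TRIM22 had the lowest log2 fold change of all 48 tested members.

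TRIM22 is an interferon-induced ligase that restricts HIV and influenza virus and is a known p53 target. It was at 25.4, 23.2 and 26.1 CPM in p53 WT replicates 1, 2 and 3, and at 1.49, 1.03 and 1.70 CPM in p53 KO replicates 1, 2 and 3. Every p53 WT library was above every p53 KO library, with a gap far wider than the spread within either group; such a separation of the groups was seen in 40.8% of all genes tested and in 23 of 48 TRIM genes. The log2 fold change was -4.17 (SE 0.21, adjusted p = 1.10e-08 by edgeR), an 18.0-fold lower level in p53 KO. It lay between -4.37 and -3.99 in all 15 other settings. The counts behind it were 2002, 1559 and 634 in p53 WT and 110, 42 and 34 in p53 KO, so the transcript was low but still detected without p53. In the authors' deposited table its log2 fold change, given there as p53 WT over p53 KO, is 4.14 with an adjusted p of 9.37e-29. That table marks 124 of its 35987 genes as intersecting a p53 cistrome, and none of its 62 TRIM genes, TRIM22 included, carries the mark. Which cistrome the authors used is not given in the sources used here.

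TRIM29 (ATDC), which lacks a RING domain and is known to bind p53 in the cytoplasm, moved the other way. It was at 0.941, 0.743 and 0.617 CPM in the p53 WT libraries and 3.58, 4.10 and 4.16 CPM in the p53 KO libraries. All 3 p53 KO libraries were above all p53 WT libraries, at a low level throughout. Its log2 fold change was 2.33 (SE 0.33, adjusted p = 0.000148 by edgeR), a 5.04-fold higher level. TRIM29 marks stratified epithelia, for which no marker list was read here. The leukocyte and muscle marker sums above also differed between the groups, with single markers on both sides. Their part in the TRIM29 value was not tested. Together TRIM22 and TRIM29 bound the range of the called members.

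**Figure D2:**
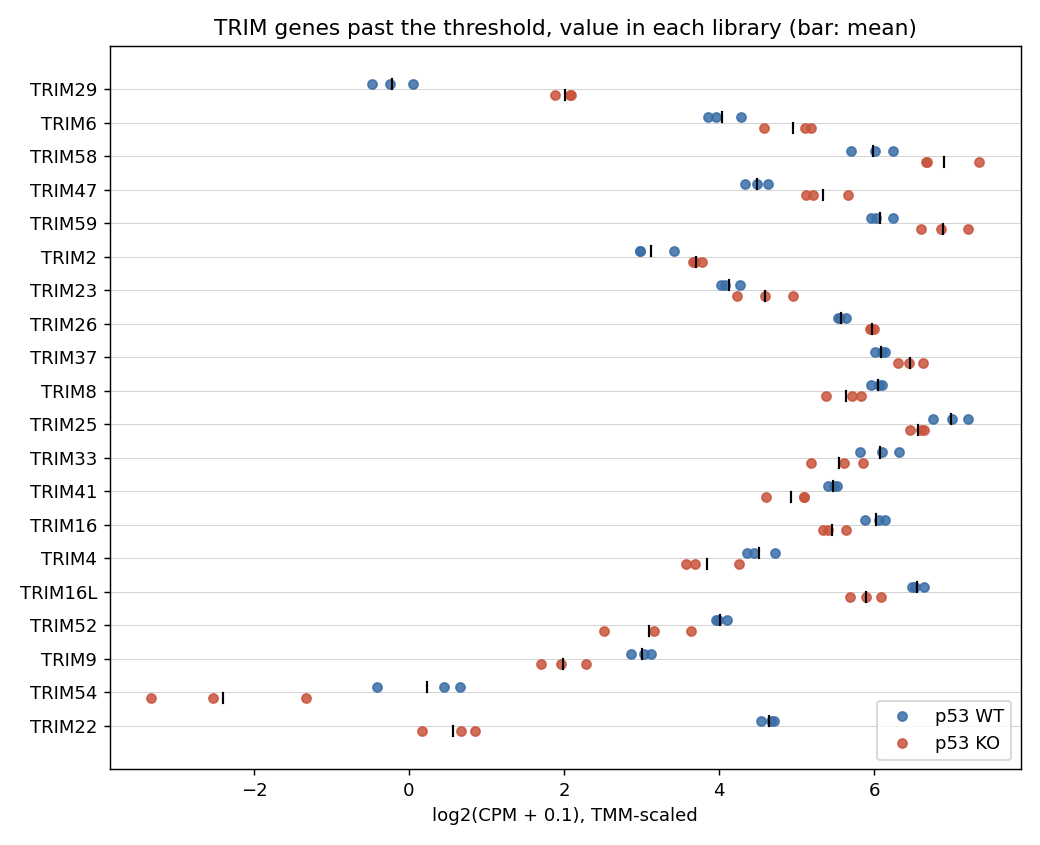
The 20 TRIM genes past the threshold, each library as a point on log2(CPM + 0.1), p53 WT and p53 KO in separate colours, with the mean of the group's log2 values as a bar. The ranges of the groups overlap for TRIM23 and TRIM33 only; for TRIM22 the p53 WT libraries are at 23.2 to 26.1 CPM and the p53 KO libraries at 1.03 to 1.70 CPM.

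Of the other p53-linked members, TRIM59 rose and TRIM8 fell. TRIM59, a membrane-anchored member reported to promote loss of p53, was at 65.2, 75.5 and 62.4 CPM in p53 WT and 147, 116 and 96.9 CPM in p53 KO. The groups did not overlap, and the log2 fold change was 0.83 (SE 0.14, adjusted p = 0.000542 by edgeR). Of its 50 nearest tested protein-coding genes 22 rose (background 12.1%) and 2 fell (background 14.4%), with a median of 0.50. With that local median taken off, TRIM59 had 0.32 (adjusted p = 0.128 by edgeR), so its call was lost. TRIM8, a p53-induced ligase that frees p53 from MDM2, was at 68.8, 62.4 and 66.7 CPM in p53 WT and 52.4, 41.5 and 56.8 CPM in p53 KO. Its groups did not overlap either, but the difference was small, at -0.39 (SE 0.12, adjusted p = 0.0295 by edgeR). The call was lost once the neighbours' median of -0.24 was subtracted (-0.15), as it was without p53 WT replicates 1, 2 or 3 (-0.37, -0.44 and -0.39) or p53 KO replicates 1 or 2 (-0.43 and -0.28).

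The remaining 5 tested p53-linked members did not pass. TRIM28 (KAP1), the corepressor for KRAB zinc-finger proteins and a partner of MDM2, was at 464, 412 and 423 CPM in p53 WT and 433, 388 and 480 CPM in p53 KO. The libraries of the groups interleave, and its log2 fold change was 0.00075 (SE 0.10). TRIM24, a ligase for p53, had -0.26 (SE 0.14), with 22.9 ± 0.799 and 19.0 ± 2.90 CPM (SD, n = 3). TRIM32, an NHL-repeat ligase that is both a p53 target and a ligase for p53, had 0.11 (SE 0.13), at 32.6, 32.4 and 32.0 CPM in p53 WT and 28.9, 39.1 and 37.2 CPM in p53 KO. TRIM13, an endoplasmic reticulum member that acts on MDM2, had -0.14 (SE 0.15), and TRIM39 had 0.02 (SE 0.14). The readthrough TRIM39-RPP21, named here after its value was seen, had 10809 counts in all, where TRIM39 had 7331. It had 0.30 (SE 0.13, adjusted p = 0.111 by edgeR) without overlap of the groups, and reads of the pair are uncertain as single genes. TRIM67 and TRIM71 had 48 and 13 counts in all and were not tested. Of the p53-linked members described above as p53 targets, TRIM22 thus had -4.17, TRIM8 -0.39 and TRIM32 0.11.

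The antiviral list held 14 members, of which 13 were tested: 3 rose (background 12.1%), 3 fell (background 14.4%) and 7 did not pass. The called share was 46.2%, where it was 26.5% over all genes tested and 37.5% over those averaging 5 CPM or more. All tested antiviral members but TRIM34 averaged more than 5 CPM. The groups did not overlap for 9 of the 13 (69.2%), where 40.8% of all genes tested had no overlap. Among tested TRIM genes on neither list, the called share was 40.7% and the share without overlap was also 40.7%. These differences from the background were not tested. TRIM31, with 61 counts, was not tested. Interferon-induced genes often carry an interferon-stimulated response element near their start, whose core, a pair of GAAA separated by any 2 bases, was searched on both strands from 250 bases before to 50 bases after each start in RefSeq (GRCh38.p14). Sequences were found for 56 of the 72 members, not for TRIM22 or TRIM4. The letters occurred in 5 of 12 antiviral members with a sequence (41.7%), in 0 of 5 p53-linked members, in 5 of 39 other members (12.8%) and in 4.38% of 27305 genes. The stretches of these 5 antiviral members are shown so that the element each carries can be read beside its values; capitals mark the element, which reads as a pair of TTTC where it lies on the other strand.
TRIM5: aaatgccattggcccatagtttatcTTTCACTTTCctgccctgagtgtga
TRIM34: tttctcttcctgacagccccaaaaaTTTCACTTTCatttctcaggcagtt
TRIM14: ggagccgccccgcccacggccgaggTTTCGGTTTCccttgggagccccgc
TRIM26: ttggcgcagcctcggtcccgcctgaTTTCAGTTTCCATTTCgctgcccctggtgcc
TRIM21: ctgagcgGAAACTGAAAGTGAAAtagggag
They lie at chr11:5685077-5685126 (TRIM5, minus strand), chr11:5624886-5624935 (TRIM34, plus strand), chr9:98119224-98119273 (TRIM14, minus strand), chr6:30213570-30213625 (TRIM26, minus strand) and chr11:4393663-4393692 (TRIM21, minus strand). The element spans bases -27 to -18 from the start of TRIM5, -90 to -81 for TRIM34 and -26 to -17 for TRIM14. In TRIM26 (-194 to -179) and TRIM21 (18 to 33, within the transcript) there are 2 overlapping copies. TRIM5 and TRIM34 share the same 10 letters. A match to these letters is a description and not evidence of binding.

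Of these 5 genes TRIM26 alone rose (background 12.1%) and none fell (background 14.4%). TRIM26, which restrains interferon signalling, was at 46.3, 49.5 and 47.1 CPM in p53 WT and 61.9, 63.9 and 61.8 CPM in p53 KO. The libraries within each group were tight and the groups did not overlap, with a log2 difference of 0.39 (SE 0.10, adjusted p = 0.0102 by edgeR). Its neighbours had a median of 0.22, and with that taken off it had 0.17 (adjusted p = 0.288 by edgeR). TRIM21, the cytosolic antibody receptor, had 0.27 (SE 0.14), at 18.8, 17.9 and 18.0 CPM in p53 WT and 19.3, 22.5 and 24.6 CPM in p53 KO. Those ranges did not overlap, yet the adjusted p was 0.182 by edgeR. TRIM5, which binds retroviral capsids, had -0.19 (SE 0.15), TRIM14, a RING-less adaptor of MAVS, had -0.18 (SE 0.11), and TRIM34 had 0.30 (SE 0.60) at 1.27 CPM or less in every library. The level of TRIM34 is uncertain, since the readthrough TRIM6-TRIM34, given below, may share its reads.

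A GAS element, another interferon-type motif, was searched as TTCNNNGAA on both strands and occurred in 0 of 12 antiviral members, 0 of 5 p53-linked members, 12 of 39 other members (30.8%) and 9.38% of genes. Of those other members, TRIM15, TRIM40, TRIM49, TRIM49B, TRIM49C, TRIM64 and TRIM64B had too few counts to be tested, and some of them are near copies. The p53 half-site, searched by its consensus, occurred in 1 of 12 antiviral members (TRIM21), 1 of 5 p53-linked members (TRIM71), 6 of 39 others and 8.06% of genes. Apart from TRIM21, none of these members with the half-site was tested for expression. The half-site letters and the interferon element were searched apart, and their overlap was not counted. The absence of letters in these windows says nothing of elements elsewhere, such as in introns.

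TRIM6, TRIM23 and TRIM26 were the antiviral members that rose. TRIM6, which makes free ubiquitin chains that activate an interferon kinase, was at 15.5, 14.3 and 19.3 CPM in p53 WT and 23.8, 36.4 and 34.3 CPM in p53 KO. All p53 KO libraries were above all p53 WT libraries, with a log2 difference of 0.95 (SE 0.17, adjusted p = 0.00105 by edgeR). TRIM23, whose C-terminus is an ARF-type GTPase domain, was at 16.7, 19.1 and 16.2 CPM in p53 WT and 31.0, 24.0 and 18.7 CPM in p53 KO. Its groups overlapped, and the log2 difference of 0.51 (SE 0.17, adjusted p = 0.0440 by edgeR) lost its call without p53 WT replicates 1, 2 or 3 (0.47, 0.58 and 0.46) or p53 KO replicates 1 or 2 (0.30 and 0.52), and once the neighbours' median was subtracted (0.51, adjusted p = 0.0523 by edgeR).

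TRIM22, TRIM4 and TRIM25 were the antiviral members that fell. TRIM25, the ligase that activates the RNA sensor RIG-I, was at 108, 129 and 148 CPM in p53 WT and 88.3, 97.1 and 99.9 CPM in p53 KO. The groups did not overlap, with a log2 difference of -0.43 (SE 0.12, adjusted p = 0.0139 by edgeR), and the call was lost without p53 WT replicates 2 or 3 (-0.43 and -0.33) or p53 KO replicate 1 (-0.38). TRIM4, another ligase for RIG-I, was at 21.8, 26.3 and 20.3 CPM in p53 WT and 12.8, 19.0 and 11.8 CPM in p53 KO. Its log2 fold change was -0.65 (SE 0.19, adjusted p = 0.0186 by edgeR), and its call was lost without p53 WT replicate 2 (-0.54) or p53 KO replicate 1 (-0.56). TRIM65, a ligase for the RNA sensor MDA5, was at 20.1 to 21.5 CPM in p53 WT and 14.6 to 17.8 CPM in p53 KO and did not pass (-0.38, SE 0.14, adjusted p = 0.0663 by edgeR), except without p53 KO replicate 2 (-0.47). TRIM38 and TRIM56, which tune innate signalling, had -0.27 (SE 0.14) and -0.21 (SE 0.16). TRIM38 had -0.45 once the neighbours' median of 0.18 was subtracted and was then called lower (adjusted p = 0.0423 by edgeR).

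The sensing and interferon pathway in which these ligases act was read from a list of 19 genes, all tested, with a median of -0.01. Of these, 2 rose and 3 fell, at 26.3% near the background of 26.5%. DDX58, which encodes RIG-I, had -0.86 (SE 0.17), TBK1, the kinase downstream of it, had -0.51 (SE 0.14), and IFNAR2, an interferon receptor chain, had -0.60 (SE 0.19). The factors IRF1 and IRF3 had 0.58 (SE 0.16) and 0.38 (SE 0.12). DDX58 kept its call in every other setting. TBK1 lost its call without p53 WT replicate 2 (-0.45), and IFNAR2 without p53 WT replicates 1 or 2 (-0.54 and -0.60) or p53 KO replicate 1 (-0.42). IRF1 lost its call without p53 WT replicates 2 or 3 (0.54 and 0.51) or p53 KO replicate 1 (0.53). For IRF3 it was lost without any p53 WT replicate (0.33, 0.41 and 0.39), without p53 KO replicates 1 or 3 (0.37 and 0.32) and once the neighbours' median was subtracted (0.16). The interferon-induced MX1, OAS1, IFIT1 and ISG15, named here after their values were seen, did not pass. They were at 0.742, 0.435, 1.99 and 2.82 CPM on average in p53 WT and 0.75, 0.692, 1.41 and 4.78 CPM in p53 KO. Their log2 fold changes were 0.03 (SE 0.65), 0.81 (SE 0.95), -0.48 (SE 0.37) and 0.75 (SE 0.29). The groups overlapped for all but ISG15, which was higher in every p53 KO library (adjusted p = 0.0698 by edgeR).

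TRIM22, TRIM5, TRIM6 and TRIM34 stand next to each other on chromosome 11, yet they did not change together. TRIM22 fell, TRIM6 rose, and TRIM5 (31.4, 43.0 and 42.2 CPM in p53 WT, 30.2, 40.0 and 32.2 CPM in p53 KO) and TRIM34 did not pass. The readthrough TRIM6-TRIM34, which shares exons with TRIM6 and TRIM34 so that their reads are uncertain as single genes, rose by 0.87 (SE 0.28, adjusted p = 0.0323 by edgeR). It had 2514 counts over all libraries, where TRIM34 had 244. Its call was lost once the neighbours' median was subtracted (0.69) and without p53 WT replicates 1 or 2 (0.71 and 0.72) or p53 KO replicate 2 (0.58). Of the 50 nearest tested protein-coding genes of TRIM22, 8 rose (background 12.1%), 1 fell (background 14.4%) and 41 did not pass, and the lowest value among them was -0.86. With their median of 0.20 taken off, TRIM22 had -4.37 (adjusted p = 9.83e-09 by edgeR) and TRIM6 had 0.78 (adjusted p = 0.00563 by edgeR). The low level of TRIM22 was therefore not shared by its neighbours.

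**Figure D3:**
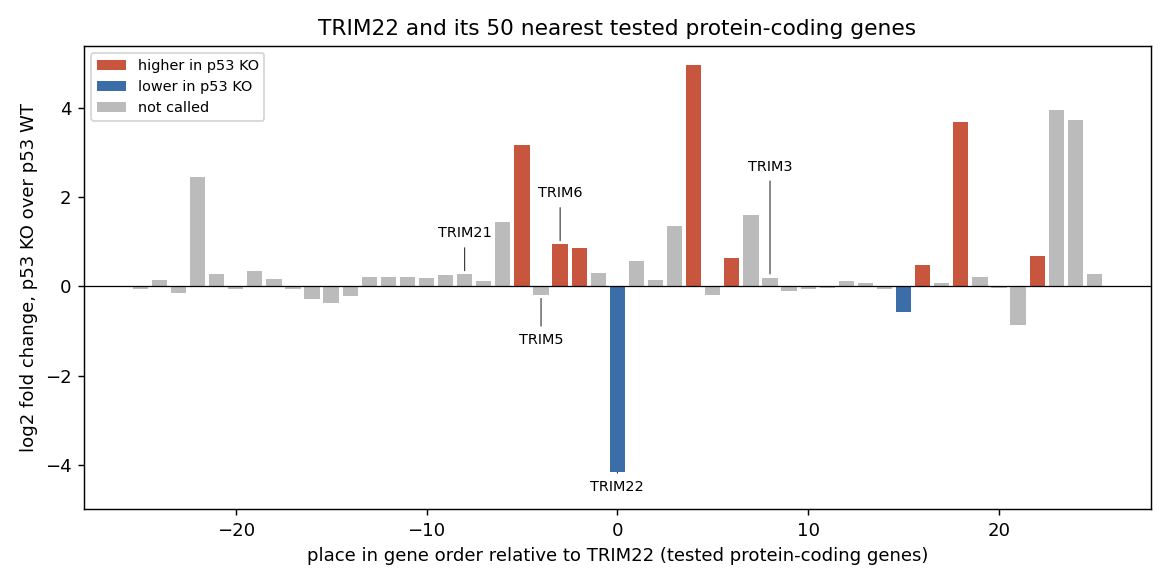
Log2 fold change, p53 KO over p53 WT, of TRIM22 and its 50 nearest tested protein-coding genes in chromosomal order (RefSeq), coloured by call. TRIM22 stands at -4.17 while no neighbour lies below -0.86.

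The chromatin-bound TIF1 members are TRIM24, TRIM28, TRIM33 and TRIM66, of which 1 fell (background 14.4%) and none rose (background 12.1%). TRIM33 (TIF1γ), a ligase for SMAD4 in TGF-beta signalling, was at 56.4, 68.5 and 79.5 CPM in p53 WT and 48.7, 58.0 and 36.3 CPM in p53 KO. The groups overlapped, and its log2 difference of -0.51 (SE 0.16, adjusted p = 0.0318 by edgeR) lost its call without p53 WT replicates 2 or 3 (-0.51 and -0.39), without p53 KO replicates 1 or 3 (-0.52 and -0.34), with no composition factors (-0.48) and once the neighbours' median was subtracted (-0.22). TRIM66, a testis-enriched member, had -0.30 (SE 0.22). Of 9 tested partners of the TIF1 members, 2 rose (background 12.1%), 2 fell (background 14.4%) and 5 did not pass. CBX1 and CBX3, heterochromatin proteins that TRIM28 binds, had 0.43 (SE 0.09) and 0.25 (SE 0.09) and were called higher. SMAD4 and SMAD2 had -0.82 (SE 0.13) and -0.52 (SE 0.11) and were called lower. Neighbouring genes of SMAD4 and SMAD2 were also lower, with medians of -0.52 and -0.60, and neither passed once these were taken off (-0.29 and 0.08). CBX3 lost its call with no filter on low counts (0.24), without any one of 5 libraries (p53 WT replicates 1, 2 and 3 at 0.26, 0.27 and 0.20, p53 KO replicates 1 and 2 at 0.23 and 0.28) and once the neighbours' median was subtracted (0.17).

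Of the members known from muscle, nerve and the cytoskeleton, TRIM54 and TRIM9 fell and TRIM2 rose. TRIM54 (MuRF3), a microtubule-binding ligase of striated muscle, was at 1.27, 0.654 and 1.48 CPM in p53 WT and 0.297, 0.0733 and 0 CPM in p53 KO. All p53 KO libraries were below all p53 WT libraries, on counts of 100, 44 and 36 against 22, 3 and 0. Its log2 fold change was -2.93 (SE 0.85, adjusted p = 0.0198 by edgeR), with -4.52 without p53 KO replicate 1, and the call was lost without p53 WT replicates 1 or 3 (-2.88 and -2.75) and by limma-voom (-3.0, adjusted p = 0.0548). The related TRIM55 (MuRF2) had 0.20 (SE 0.75), and TRIM63 (MuRF1) had no counts. The muscle markers given above went both ways, and their part in the TRIM54 value was not tested.

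TRIM9, a brain-enriched ligase with a COS box, was at 8.10, 7.21 and 8.59 CPM in p53 WT and 3.15, 4.79 and 3.81 CPM in p53 KO. The groups did not overlap and the log2 fold change was -1.03 (SE 0.23, adjusted p = 0.00422 by edgeR). Of its 50 neighbours on chromosome 14, 36 fell (background 14.4%) and 1 rose (background 12.1%), with a median of -0.68. With that taken off TRIM9 had -0.35 (adjusted p = 0.340 by edgeR). The COS-box members TRIM36 and TRIM46 had -0.0044 (SE 0.21) and 0.70 (SE 0.36) and did not pass. TRIM2, an NHL-repeat ligase for neurofilament light chain, was at 7.78, 10.6 and 7.77 CPM in p53 WT and 12.5, 13.6 and 12.8 CPM in p53 KO, with no overlap. Its log2 fold change was 0.57 (SE 0.18, adjusted p = 0.0311 by edgeR), and the call was lost without p53 WT replicates 1 or 3 (0.48 and 0.49) or p53 KO replicates 1 or 2 (0.60 and 0.53). TRIM3, its closest NHL relative, had 0.20 (SE 0.15).

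The other called members were TRIM58, TRIM47 and TRIM37, which rose, and TRIM52, TRIM16L, TRIM16 and TRIM41, which fell. TRIM58, an erythroid ligase that degrades dynein, was at 52.2, 64.2 and 75.4 CPM in p53 WT and 101, 163 and 102 CPM in p53 KO, with a log2 difference of 0.94 (SE 0.18, adjusted p = 0.00127 by edgeR). TRIM47 was at 20.1, 24.7 and 22.4 CPM in p53 WT and 37.1, 34.8 and 50.5 CPM in p53 KO, with 0.86 (SE 0.15, adjusted p = 0.000762 by edgeR). Both were higher in every p53 KO library than in any p53 WT library. TRIM47 lay among neighbours with a median of -0.24, so that it had 1.1 with that taken off. TRIM37, a ligase that limits centriole assembly and is mutated in Mulibrey nanism, had 0.39 (SE 0.11, adjusted p = 0.0166 by edgeR), at 64.4 to 70.7 CPM in p53 WT and 79.2 to 99.3 CPM in p53 KO. Its call was lost without p53 WT replicates 1, 2 or 3 (0.34, 0.42 and 0.39) or p53 KO replicate 2 (0.29).

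TRIM16 binds galectins at damaged lysosomes, and TRIM16L is a shorter copy of it, so that reads may be split between the pair. TRIM16 was at 70.2, 66.5 and 58.7 CPM in p53 WT and 40.4, 49.6 and 42.2 CPM in p53 KO. TRIM16L was at 92.4, 99.9 and 89.3 CPM in p53 WT and 51.2, 67.8 and 59.6 CPM in p53 KO. Neither had overlapping groups, and their log2 fold changes were close, at -0.57 (SE 0.12, adjusted p = 0.00268 by edgeR) and -0.66 (SE 0.12, adjusted p = 0.000787 by edgeR). TRIM41 and TRIM52, close to each other on chromosome 5, had -0.53 (SE 0.14, adjusted p = 0.0119 by edgeR) and -0.83 (SE 0.23, adjusted p = 0.0146 by edgeR). TRIM52 was at 17.1, 15.5 and 15.7 CPM in p53 WT and 12.3, 8.84 and 5.61 CPM in p53 KO, so that its p53 KO libraries were more spread than its p53 WT libraries. TRIM41 lost its call without p53 KO replicate 1 (-0.37, adjusted p = 0.05003 by edgeR).

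The 28 members that did not pass had log2 fold changes of -1.12 to 0.87, and the 22 of them with a mean of at least 5 CPM had -0.38 to 0.27. TRIM27 and TRIM44 were among the most abundant of these. TRIM27 had -0.13 (SE 0.10), and -0.40 once the neighbours' median of 0.27 was subtracted, where it was called lower (adjusted p = 0.0110 by edgeR). TRIM44 had -0.25 (SE 0.12) and passed only without p53 KO replicate 2 (-0.41). Relatives of the family with other names were read from a list of 11, of which 8 were tested: 2 rose (background 12.1%) and 1 fell (background 14.4%). Their called share was 37.5%, where it was 26.5% over all genes tested. RNF135 (Riplet), which acts on RIG-I, fell from 8.65 ± 1.11 to 4.11 ± 0.669 CPM (SD, n = 3), with -1.08 (SE 0.22, adjusted p = 0.00220 by edgeR). PML (TRIM19), the scaffold of nuclear bodies and a known p53 target, was at 35.7 ± 2.68 and 46.5 ± 2.64 CPM (SD, n = 3), a rise of 0.38 (SE 0.11, adjusted p = 0.0226 by edgeR). The neighbours of PML had a median of 0.56, and with that taken off PML had -0.18 (adjusted p = 0.325 by edgeR). Leaving out libraries ended the PML call as well, for p53 WT replicates 2 and 3 (0.33 and 0.36) and p53 KO replicate 1 (0.39). TRIML2, another p53 target, named here after its value was seen, had -0.34 (SE 0.24) and did not pass.

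Chromosomal neighbourhood moved with several of these values. With the local median taken off each gene, 16 TRIM genes were called, 6 higher and 10 lower, where 19.7% of all genes tested were (9.20% higher and 10.5% lower). Of the 20 members called before, 14 kept their call, and TRIM59, TRIM26, TRIM23, TRIM8, TRIM33 and TRIM9 lost it, while TRIM38 and TRIM27 gained one. TRIM22, TRIM29, TRIM6, TRIM58, TRIM47, TRIM52, TRIM16 and TRIM16L kept their call in all 15 other settings at the 0.05 threshold, this one and each left-out library included. At an adjusted p under 0.01 by edgeR, 9 TRIM genes passed, where 16.8% of all genes tested did. Of these 9, 5 were higher (background 7.42%) and 4 lower (background 9.39%). TRIM52 (adjusted p = 0.0146) was the one member of those 8 that did not pass there. The cause of the shifts shared by neighbouring genes was not tested.

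**Figure D4:**
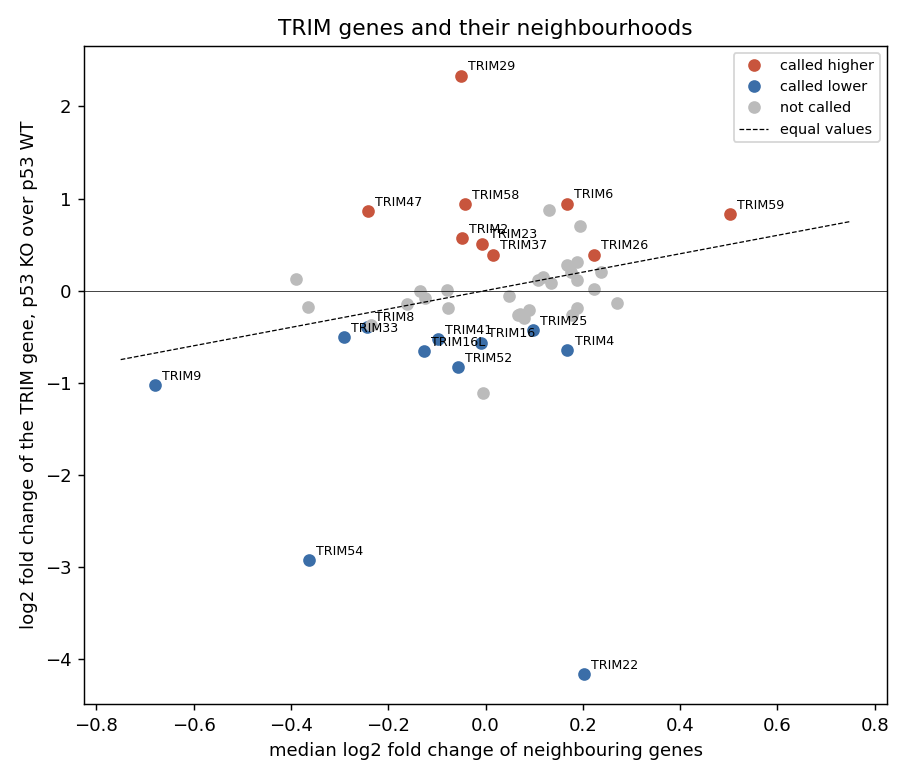
Log2 fold change of each tested TRIM gene with a place in the gene order against the median log2 fold change of its neighbours (up to 25 tested protein-coding genes on each side), with a line of equal values. TRIM9 (-0.68) and TRIM59 (0.50) have the lowest and highest neighbour medians, while TRIM22, TRIM54 and TRIM29 lie farthest from the line.

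Levels of different members were compared per kilobase of exon (the union of GENCODE 29 exons of each gene). TRIM28 was the most abundant member in both groups, at 107 ± 6.79 CPM per kb in p53 WT and 107 ± 11.3 in p53 KO (SD, n = 3). Next in p53 WT came TRIM16L (21.7 ± 1.26 CPM per kb) and TRIM58 (19.8 ± 3.61), which did not differ beyond their spread, then TRIM25 (13.5 ± 2.09) and TRIM37 (12.4 ± 0.578), which did not either (SD, n = 3). In p53 KO the order after TRIM28 was TRIM58 (37.9 ± 11.1), TRIM37 (16.2 ± 1.84) and TRIM59 (15.3 ± 3.24), the last pair within their spread (SD, n = 3). TRIM22 went from place 24 of 72, at 4.14 ± 0.252 CPM per kb, to place 45, at 0.233 ± 0.0575 (SD, n = 3). TRIM29, in spite of its 5.04-fold higher level, moved only from place 49 to place 43.

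**Figure D5:**
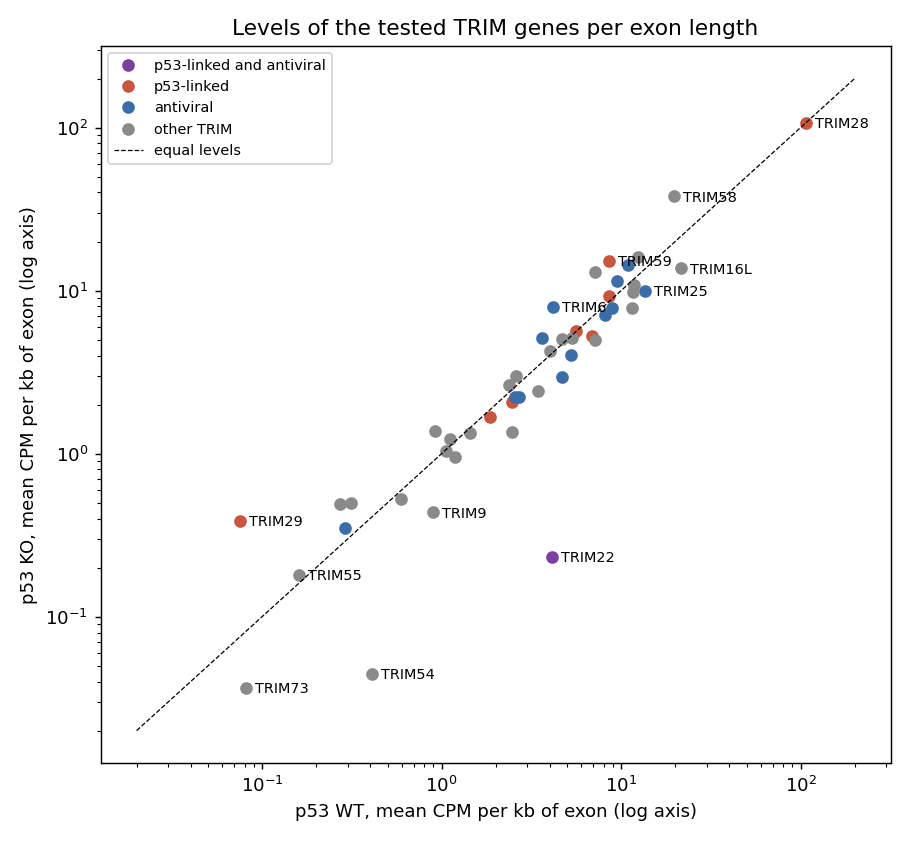
Mean level of each tested TRIM gene in p53 WT and p53 KO, in CPM per kilobase of exon on log axes, coloured by list, with a line of equal levels. TRIM28 lies on the line at 107 in both groups, TRIM22 falls far below it (4.14 and 0.233) and TRIM29 lies above it (0.0751 and 0.386).

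The authors' deposited table gives an adjusted p for 50 TRIM genes, and for 15 of them it is under 0.05, where it is for 20.8% of all its genes that carry one. All 15 were also among the 20 members called here, in the same direction. The 5 called here alone were TRIM2, TRIM25, TRIM33, TRIM37 and TRIM58.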

How the data were processed

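Polyadenylated RNA was sequenced from 6 DIvA libraries with a stranded kit. The authors deposited raw counts per gene symbol. They also deposited a comparison table, which holds per gene the p-value and adjusted p-value, the log2 fold change, its error, the test score, the mean signal over libraries and a p53 cistrome mark. Per the submitters' processing notes, the tools were HISAT2 2.1.0, fastp 0.21.0 and DESeq2 1.3.6, on GRCh37 (hg19). How reads were counted, with which annotation and strand setting, is not given in the sources used here. Overlapping genes and near copies are therefore uncertain as single genes. In all 35987 rows of the comparison table the fold change and test score had opposite signs, and the fold change there was taken as the p53 WT level over that in p53 KO.

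Groups came from sample titles. Count columns named for DIvA and 4-OHT carry no genotype and were matched to the p53 WT titles by replicate number, since the other columns are named p53 KO. All counts were fitted with edgeR 4.0.16 (R 4.3.3; quasi-likelihood F-test, robust, TMM, filterByExpr, 22352 genes tested), p-values were adjusted by Benjamini-Hochberg over all genes tested, and the threshold was 0.05. The SE is the absolute log2 fold change over the square root of F. The test was checked on simulated counts. The alternatives comprised no composition factors, RLE or upper-quartile factors, no filter, at least 1 CPM in 3 libraries, DESeq2 1.42.0, limma-voom (limma 3.58.1), the replicate number as a block, each library left out in turn, an adjusted p under 0.01 and a local median offset. For that offset the median of up to 25 tested protein-coding genes on each side was taken off; order came from RefSeq GRCh38.p14, another build than the authors', and 5259 tested genes had no local median and no offset.

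Members and lists were chosen with earlier results of these data known. Genes named are the called TRIM genes, tested members of the functional lists, called members of the other lists, and up to 5 abundant others. Reads carry no molecular identifiers, so floors cover counting error only. Some genes are not reported here.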

Additional observations from a re-analysis of the deposited data

How the results depend on the processing

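At the 0.05 threshold, no called TRIM gene changed direction in any of the 15 other settings, 8 of the 20 kept their call in every one, and 12 lost it in at least one. At an adjusted p under 0.01, 9 TRIM genes passed, 5 higher and 4 lower, where 16.8% of all genes tested did (7.42% higher and 9.39% lower). With each library left out in turn, 13 to 19 passed, of which 6 to 9 were higher and 6 to 12 lower; these fits have fewer samples, and 18.6% to 24.8% of all genes tested passed in them. The count was 13 without p53 WT replicate 3 (7 lower; all genes 19.1%) or p53 KO replicate 1 (6 lower; all genes 22.6%), and 14 without p53 WT replicate 2 (7 lower; all genes 18.6%). The median log2 fold change of the members on neither list was -0.0578, and it ranged from -0.136 to -0.0102 with a library left out (-0.0984 without p53 KO replicate 1). The median over the p53-linked or antiviral members turned from -0.14 to 0.0056 after the local median was taken off; it was not a called value. Among uncalled members, 4 gained a call in at least one setting. The labels do not state a pairing. Deviations of same-numbered libraries from their group mean correlated at 0.02, 0.03 and -0.03 across genes. Those of differently numbered libraries correlated at -0.11 to 0.08. With 3 libraries per group such values cannot exclude a pairing. With the replicate block, 18 TRIM genes passed, 8 higher and 10 lower, where 23.1% of all genes tested did; TRIM23 (0.48) and TRIM33 (-0.52) did not, nor did PML (0.38), IRF3 (0.38) and CBX3 (0.25). Depth limits members of low count: TRIM54 rests on 22, 3 and 0 counts in p53 KO, and 24 members could not be tested.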
